A study of Mus musculus with 4 samples.

Results

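The genes described here are 50 members of the WNT signalling pathway, chosen by name and by role out of 53465 genes counted. They are 11 ligands, 15 receptors, 8 genes of the R-spondin axis, 9 secreted inhibitors and 7 nuclear factors and targets. The RNA came from Fgf10-positive cells sorted from mouse submandibular glands, salivary glands whose epithelial ducts and acini lie in a stroma. The adult group held 2 libraries from mice at postnatal day 60, given tamoxifen at days 57 and 58. The pup group held 2 libraries from mice at postnatal day 7, given tamoxifen at days 4 and 5. Both groups were C57BL/6J mice of the genotype Fgf10CreERT2:Rosa26Tomato fl/fl and received 0.1 mg of tamoxifen per g of body weight. In this model the Cre recombinase is driven by Fgf10 and is active only with tamoxifen, so the Tomato reporter marks cells in which that driver was on around the injections. Whether the 2 libraries of an age are from different animals is not stated in the labels, so the p-values reflect spread between libraries that may be technical.

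WNT ligands are secreted lipid-modified proteins that bind a Frizzled receptor together with LRP5 or LRP6. In the canonical branch this stabilises beta-catenin, which enters the nucleus and joins TCF and LEF factors at target genes. Other branches run through ROR and RYK receptors and control cell polarity and movement. R-spondins bind LGR receptors and remove the ubiquitin ligases ZNRF3 and RNF43, which otherwise clear Frizzled receptors from the cell surface. Secreted inhibitors bind the ligands or the LRP co-receptors. In developing salivary glands, WNT signals pass between stroma and epithelium and take part in branching and duct formation.

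Counts over genes ranged from 7289792 to 21490686 per library, the lowest being pup replicate 1. Levels are given as CPM, the count of a gene relative to the library's total scaled by TMM factors. Genes of the same family are compared as TPM, which also divides by exon length. Marker sums, the order of genes by mean level and the choice of other pathway genes to name used CPM, which is not divided by length. Fgf10 stood at 195 and 40.3 CPM in the adult libraries, against 27.3 and 24.1 CPM in the pup libraries. Summed over 8 general epithelial markers, such as Epcam and Cdh1, the libraries held 9749 and 14106 CPM in adults against 1807 and 4356 CPM in pups. Over 6 ionocyte markers, such as Foxi1, the sums were 4394 and 2273 CPM in adults against 45.6 and 43.7 CPM in pups. Over 8 fibroblast markers, such as Pdgfra and Col1a1, they were 1273 and 22000.3 CPM in adults against 26107 and 59858 CPM in pups. All 22 genes of these 3 lists had a count in every library, though a count in pup replicate 1 can be background, as described below. Over 6 acinar markers the sums were 108 and 652 CPM in adults against 575 and 1747 CPM in pups, with 4 of the 6 at 0 counts in adult replicate 1. Most of the pup sums was Smgc, at 526 and 1564 CPM, against 106 and 227 CPM in adults. Dcpp1 and Bpifa2 also had both adult libraries below both pup libraries. Aqp5, Bhlha15 and Lpo were instead highest in adult replicate 2, at 138, 41.2 and 225 CPM, so the list had no single direction. The adult libraries thus differed from each other far more in the fibroblast sum than in the epithelial sum. The fibroblast genes were not alike in this. Col3a1 had 105 and 8498 CPM in adult replicates 1 and 2, whereas Dcn had 842 and 2196 CPM and Postn 156 and 164 CPM. In bulk RNA fewer cells of a type and less RNA per cell cannot be told apart.

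Pup replicate 1 stood apart. Reads overlapping no counted feature made up 76.7% of its tallied reads, against 9.70% and 9.90% in the adults and 10.6% in pup replicate 2. Such reads need not lie outside genes, as the counting options were not given. A count was held in pup replicate 1 by 96.5% of 1134 genes for olfactory receptors, proteins of the nose. The rate over those genes, 14.0 counts per kb of exon, gives an expected background count for each gene. Among 4959 protein-coding genes with 0 counts in the other 3 libraries, the ratio of observed to expected counts had a median of 0.771 and a 95th percentile of 2.90. Of the 50 members, 25 had a ratio at or below that percentile in pup replicate 1 and 25 lay above it. All 50 members had a count in that library, whereas 36 and 45 had a count in adult replicates 1 and 2 and 46 in pup replicate 2. Of the ionocyte markers, Ascl3 and Atp6v0d2 lay above that percentile in pup replicate 1. Foxi1, Cftr, Bsnd and Atp6v1b1 did not, with 39, 163, 10 and 64 counts beside 33.0, 109, 38.5 and 61.3 expected from background.

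Of the 50 members, 45 passed the filter on low counts and were tested, and 34 of these 45 had a negative log2 fold change of adult over pup. Their median log2 fold change was -0.86, beside -0.24 over all 16320 genes tested, of which 57.1% were negative. By edgeR's quasi-likelihood test with Benjamini-Hochberg adjustment, 0 members were called higher and 0 lower, as were 0% of all genes in each direction. At an unadjusted p under 0.05 edgeR had 1 member higher in adult and 6 lower, where 5.99% and 8.49% of all genes were. DESeq2 called 4 members lower and 0 higher at an adjusted p under 0.05, where it called 5.28% of all genes lower and 3.74% higher, and limma-voom called 0 in each direction, as for 0% of all genes. The 4 were Rspo3, Wnt6, Wnt11 and Sfrp1. Both adult libraries lay below both pup libraries for 21 members and above them for 2, where 27.1% and 21.8% of all genes did so. Of the 21, 15 had a background ratio above the 95th percentile in pup replicate 1 and 6 had one at or below it. For any one gene, the smallest two-sided p that exact permutation of 2 against 2 libraries allows is 0.333.

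**Figure D1:**
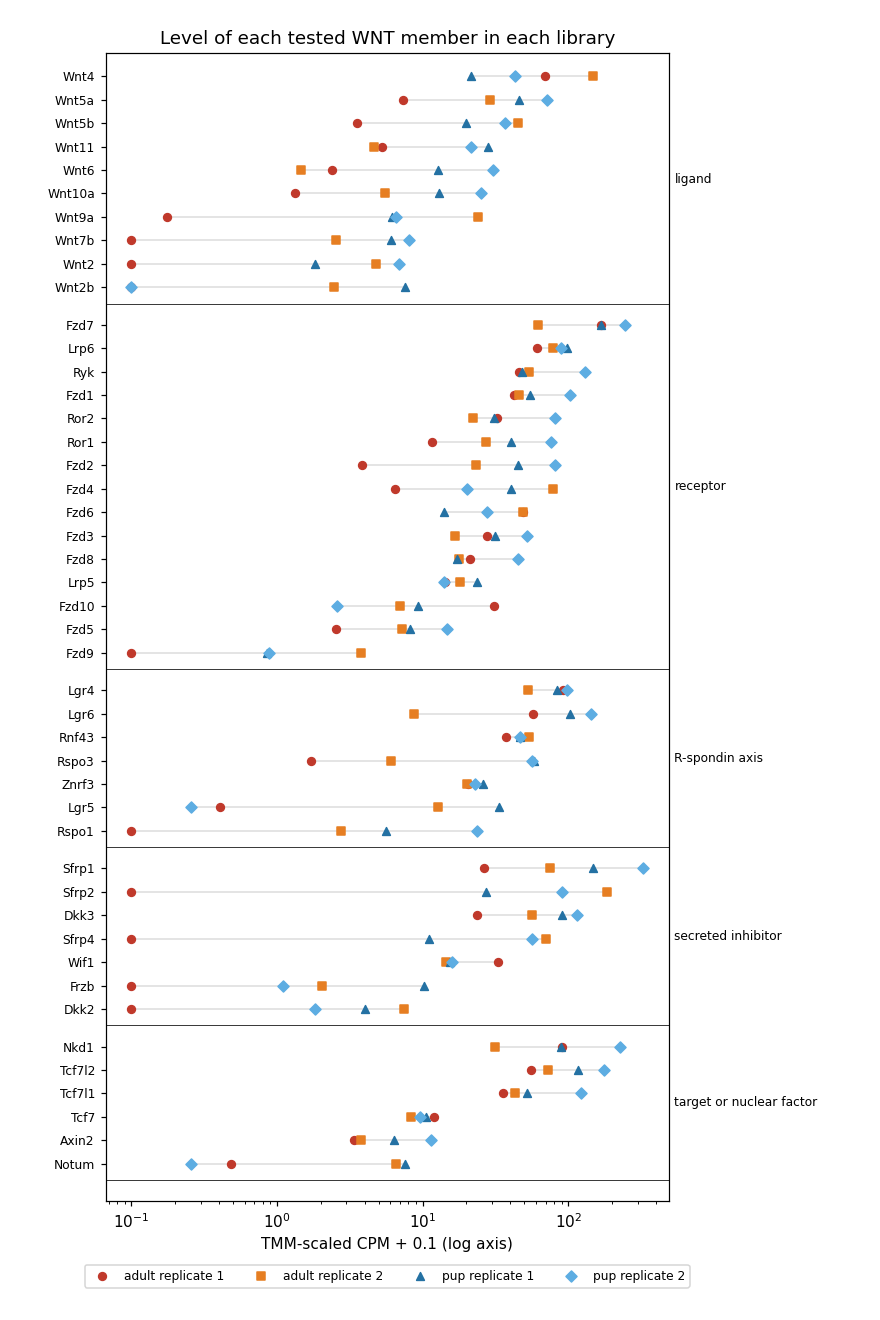
TMM-scaled CPM of each tested member, plus 0.1 and on a log axis, in each of the 4 libraries, grouped by role and ordered by mean level. Rspo3, Wnt6, Wnt11 and Sfrp1 have both adult points left of both pup points, Wnt4 and Fzd6 have both adult points to the right, and Sfrp2 and Sfrp4 are at 0 in adult replicate 1 only.

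**Figure D2:**
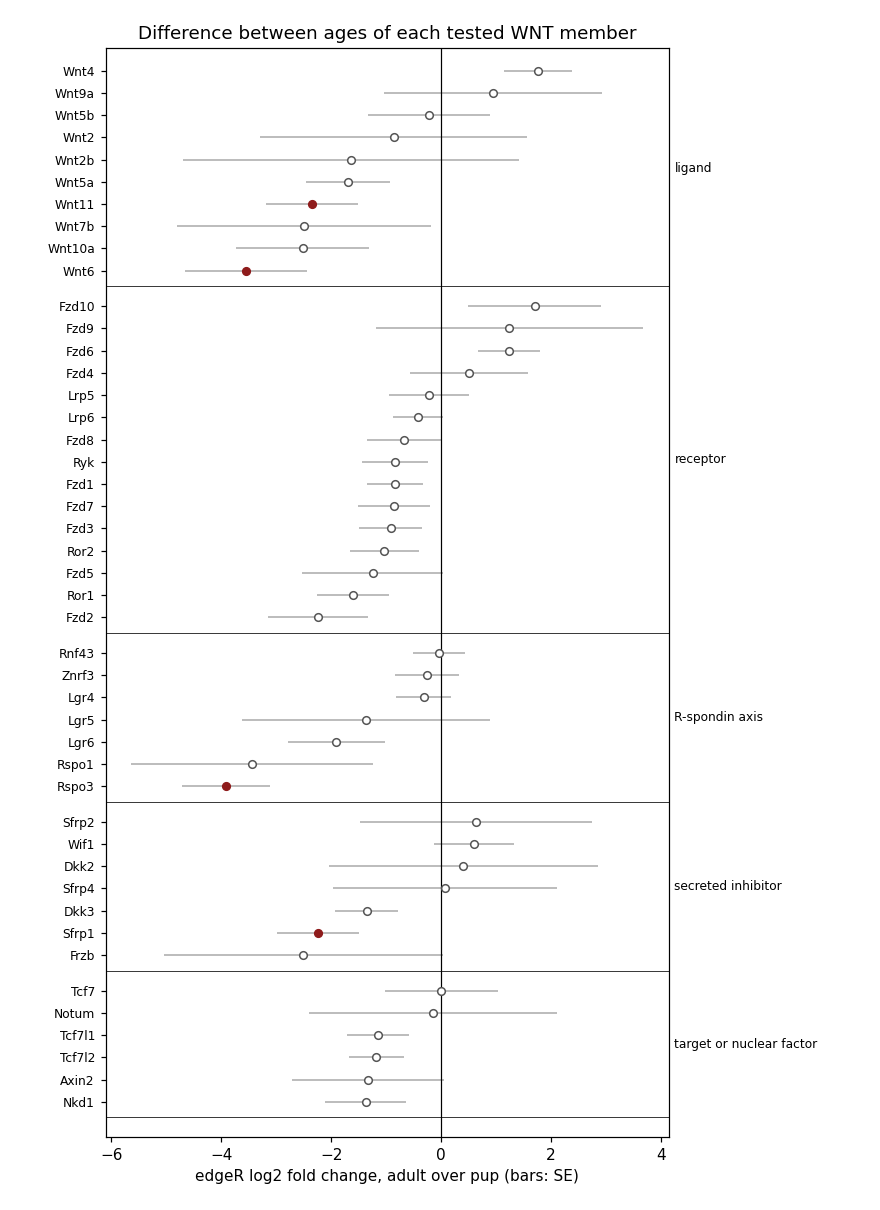
The edgeR log2 fold change of adult over pup for each tested member with its SE, grouped by role, with values left of 0 lower in adult. Filled points mark the 4 members that DESeq2 called at an adjusted p under 0.05, and open points the others. No member passed edgeR's adjusted threshold.

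Among the ligands, Wnt4 was the one with both adult libraries above both pup libraries, and 5 of the 10 tested lay the other way, where 21.8% of all genes lay above and 27.1% below. Wnt4 (chromosome 4, 137277489 to 137299726 in GRCm38), a ligand that acts in the development of kidney, mammary and other branching organs, had 69.5 and 148 CPM in adults against 21.4 and 43.2 CPM in pups. Adult replicate 2 was the highest and pup replicate 1 the lowest. The log2 fold change was 1.75 ± 0.62 (SE, n = 2 libraries in each group), and neither edgeR (adjusted p = 0.284) nor DESeq2 (adjusted p = 0.104) called it. It ranged from 1.10 without adult replicate 2 to 2.35 without pup replicate 2. Background accounts for an expected 58.7 of the 198 Wnt4 counts of pup replicate 1.

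Wnt6 (chromosome 1, 74771892 to 74785322), a ligand made mainly by epithelia, had 2.30 and 1.37 CPM in adults against 12.7 and 30.5 CPM in pups. The ages did not overlap, and the log2 fold change was -3.55 ± 1.11 (SE; edgeR adjusted p = 0.284, DESeq2 adjusted p = 0.00882). Wnt11 (chromosome 7, 98835112 to 98855195), a ligand best known for the polarity branch, had 5.13 and 4.54 CPM in adults against 27.9 and 21.4 CPM in pups. Its adult libraries were close to each other and its log2 fold change was -2.35 ± 0.83 (SE; edgeR adjusted p = 0.284, DESeq2 adjusted p = 0.0378). Without each library in turn the value ranged from -4.05 to -2.78 for Wnt6 and from -2.53 to -2.15 for Wnt11. Counts in pup replicate 1 were 117 for Wnt6, 30.7 of them expected from background, and 258 for Wnt11, 57.9 of them expected.

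The 250 bases before the start sites of Wnt6 and Wnt11 are shown because these were the ligands that DESeq2 called lower, and those of Axin2 because it is the pathway's standard feedback target. The sequences are from RefSeq, build GRCm38.p6, plus strand, at chr1:74771642-74771891, chr7:98834862-98835111 and chr11:108920099-108920348. They run 5′ to 3′, and capitals mark a match to a TCF or LEF core.
Wnt6: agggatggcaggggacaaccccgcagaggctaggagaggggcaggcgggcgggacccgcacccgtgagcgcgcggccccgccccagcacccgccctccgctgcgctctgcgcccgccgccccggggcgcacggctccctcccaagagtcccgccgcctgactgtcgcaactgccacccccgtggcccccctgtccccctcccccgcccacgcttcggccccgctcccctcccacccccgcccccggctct
Wnt11: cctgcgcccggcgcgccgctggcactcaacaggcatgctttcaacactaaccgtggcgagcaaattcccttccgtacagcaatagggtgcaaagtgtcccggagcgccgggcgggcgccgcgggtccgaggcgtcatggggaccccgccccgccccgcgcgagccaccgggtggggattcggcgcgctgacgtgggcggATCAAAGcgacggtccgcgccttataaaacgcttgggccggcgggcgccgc
Axin2: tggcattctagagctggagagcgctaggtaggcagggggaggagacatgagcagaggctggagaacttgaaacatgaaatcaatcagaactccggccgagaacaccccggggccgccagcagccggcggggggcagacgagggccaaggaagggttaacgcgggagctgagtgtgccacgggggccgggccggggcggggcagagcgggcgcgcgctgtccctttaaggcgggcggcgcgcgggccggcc
The cores searched, on both strands, were CTTTGAA, the core CTTTGAT, the core CTTTGTA and the core CTTTGTT, which cannot overlap one another on 1 strand. The Wnt11 window held 1 match, CTTTGAT read on the opposite strand, beginning 51 bases before the start site, and the Wnt6 and Axin2 windows held 0. Of 32851 windows of this length over all genes, 14.8% held at least 1 of the 4 cores and 3.21% held CTTTGAT. Windows were found for 33 of the 50 members, and 3 of them, those of Dkk1, Fzd7 and Wnt11, held a match. The 3 windows shown were rich in G and C, at 79.6% for Wnt6, 70.8% for Wnt11 and 69.2% for Axin2. A match is a run of letters and not a shown binding site.

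The other ligands were lower in adult or split the adult libraries. Wnt5a, the main ligand of the ROR branch, had 7.28 and 28.9 CPM in adults against 45.8 and 71.4 CPM in pups, a log2 fold change of -1.69 ± 0.76 (SE). Wnt10a, a ligand of ectodermal appendages, had 1.23 and 5.40 CPM in adults against 12.9 and 25.1 CPM in pups (-2.51 ± 1.21). In both genes adult replicate 1 was the lowest library and the ages did not overlap, yet neither passed (edgeR adjusted p = 0.391 and 0.424). With a library left out Wnt5a ranged from -3.01 without adult replicate 2 (edgeR adjusted p = 0.0538) to -1.06 without adult replicate 1, and Wnt10a from -3.94 to -1.85 on the same libraries. Wnt5b, close to Wnt5a in sequence, had 3.45 and 45.2 CPM in adults against 19.7 and 36.8 CPM in pups, so that the adult libraries enclosed the pup range. Wnt9a had 1 count in adult replicate 1 and 334 in adult replicate 2, against 56 and 123 counts in the pups, 46.6 of the 56 in pup replicate 1 being expected from background. Wnt2 had 0 and 65 counts in the adults against 16 and 129 in the pups, Wnt7b 0 and 34 against 55 and 152, and Wnt2b 0 and 33 against 69 and 0. For these 3 ligands and for Wnt9a the count in pup replicate 1 was within the background range. Wnt16 was not tested, with 0 counts in both adults against 119 and 5 in the pups, 61.0 of the 119 expected.

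Summed over the 11 ligands, levels per length were 47.0 and 128 TPM in adults against 147 and 153 TPM in pups. Expected background was not taken off these values. In pup replicate 1 Wnt2, Wnt2b, Wnt7b, Wnt9a and Wnt16, all within the background range, took 1.72%, 3.98%, 2.72%, 4.08% and 6.61% of the sum. Wnt4 took 76.7% and 50.3% of that sum in the adults, against 11.4% and 14.9% in the pups. Wnt6 took 4.85% and 0.886% in the adults against 12.9% and 20.1% in the pups, and Wnt10a 2.30% and 3.11% against 11.7% and 14.7%. In the pups no ligand exceeded the 20.1% of Wnt6 in pup replicate 2, and Wnt5b with 20.1% there was level with it. Wnt5b was second to Wnt4 in both adults, at 6.01% and 24.2%.

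**Figure D3:**
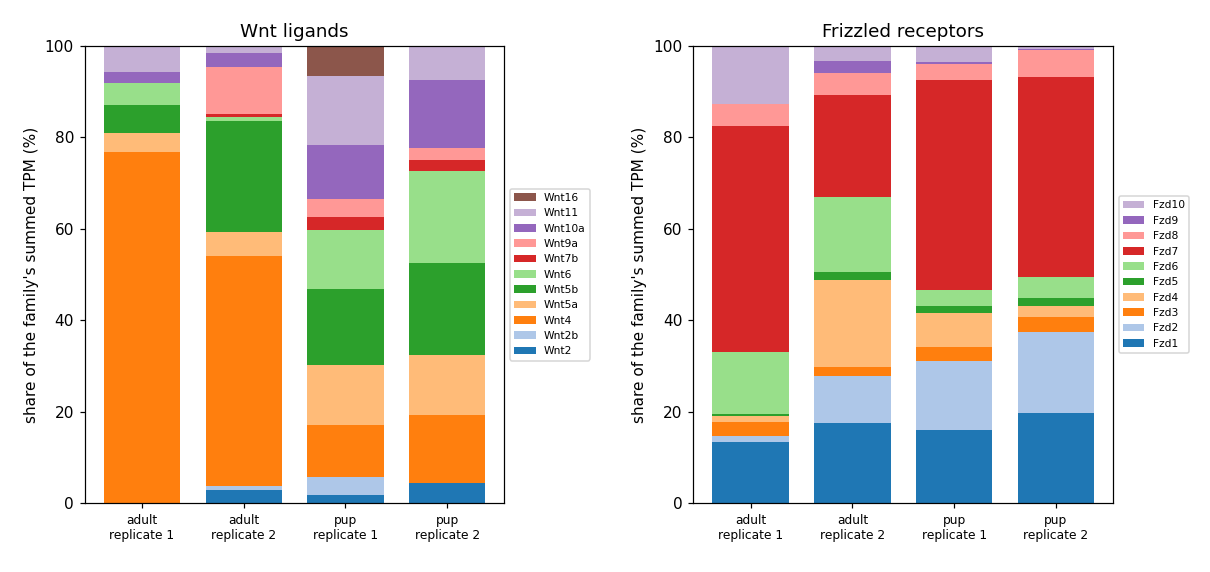
Stacked bars give each gene's share, in percent, of the TPM summed over the 11 Wnt ligands (left) and over the 10 Frizzled receptors (right) in each library. Expected background was not taken off pup replicate 1. Wnt4 takes 76.7% and 50.3% of the ligand sum in the adult libraries against 11.4% and 14.9% in the pup libraries, and Fzd6 13.5% and 16.5% of the receptor sum against 3.55% and 4.58%.

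Of the 15 receptors, all tested, 7 had both adult libraries below both pup libraries, 1 had them above, and 7 overlapped, where 27.1% of all genes lay below and 21.8% above. Fzd6, a Frizzled known for hair patterning and cell polarity, was the one that lay higher, with 48.7 and 49.2 CPM in adults against 13.9 and 27.5 CPM in pups. The adult libraries were nearly equal, and the log2 fold change was 1.24 ± 0.56 (SE; edgeR adjusted p = 0.400, DESeq2 adjusted p = 0.328). An expected 67.4 of its 128 counts in pup replicate 1 were background, and with the expected background subtracted the log2 fold change was 1.40. Fzd2, which binds Wnt5a among other ligands, showed the largest difference downward among the receptors, with 3.76 and 23.1 CPM in adults against 44.9 and 81.5 CPM in pups. Its log2 fold change was -2.23 ± 0.91 (edgeR adjusted p = 0.338), and it was called without adult replicate 2 (-4.07, edgeR adjusted p = 0.00647), where edgeR called 4.49% of all genes lower and 1.51% higher. It was not called without any of the other libraries, at -1.49 when adult replicate 1 was left out (edgeR adjusted p = 0.652), -2.61 for pup replicate 1 and -1.74 for pup replicate 2.

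Fzd7 was the Frizzled of highest level per length in every library, at 80.4 and 25.0 TPM in adults against 122 and 120 TPM in pups. In CPM it stood at 168 and 62.3 in adults against 168 and 247 in pups, so that adult replicate 1 and pup replicate 1 were nearly equal (log2 fold change -0.85 ± 0.66). Fzd1, close to Fzd7 in sequence, had 42.1 and 45.6 CPM in adults against 54.4 and 103 CPM in pups, and Fzd3 27.6 and 16.6 CPM against 31.5 and 52.1 CPM. Fzd5 had 2.45 and 7.13 CPM in adults against 8.12 and 14.7 CPM in pups, again without overlap. Its 75 counts in pup replicate 1 were fewer than the 96.7 expected from background, and 17.8% of its exon length is shared with another gene. Fzd8 overlapped between ages, with 21.2 and 17.6 CPM in adults against 17.1 and 45.0 CPM in pups. In pup replicate 1 Fzd3 and Fzd8 were within the background range, with 179 of 291 and 83.6 of 158 counts expected from background.

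Fzd4, Fzd9 and Fzd10 differed more between the adult libraries than between the ages. Fzd4, the Norrin receptor of retinal vessels, had 6.36 and 79.0 CPM in adults against 40.3 and 20.1 CPM in pups. Over 6 endothelial markers, such as Pecam1 and Cdh5, the sums were 0.0766 and 788 CPM in adults against 112 and 6.25 CPM in pups, and 5 of the 6 were at 0 counts in adult replicate 1. In pup replicate 1 all 6 were within the background range, so its 112 CPM is not shown to be endothelial RNA. Fzd4 and the endothelial sum were both highest in adult replicate 2 and lowest in adult replicate 1, and the part of endothelial RNA in the Fzd4 values was not tested. Fzd10 went the other way, with 30.9 and 6.91 CPM in adults against 9.20 and 2.47 CPM in pups, and Fzd9 had 0 and 51 counts in adults against 7 and 15 counts in pups. In pup replicate 1 Fzd10 and Fzd9 were within the background range, with 45.5 counts expected beside 85 and 32.1 beside 7. Fzd4, Fzd9 and Fzd10 were not called, and the direction of Fzd4 turned with library totals in place of TMM.

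Of the co-receptors and the receptors of other branches, Lrp6 and Ror1 did not overlap between ages and Lrp5, Ror2 and Ryk did. Lrp6, with Lrp5 the co-receptor of the canonical branch, had 60.6 and 78.3 CPM in adults against 97.7 and 88.7 CPM in pups, a log2 fold change of -0.42 ± 0.45 (SE). Lrp5 had 14.3 and 18.0 CPM in adults against 23.6 and 14.0 CPM in pups, and background was expected to give 136 of the 218 counts of pup replicate 1. Ror1, a tyrosine kinase-like receptor for Wnt5a, had 11.5 and 27.0 CPM in adults against 40.5 and 76.4 CPM in pups, with no overlap and a log2 fold change of -1.60 ± 0.65 (edgeR adjusted p = 0.335). Ror2 had 32.4 and 22.2 CPM in adults against 31.0 and 80.8 CPM in pups, and Ryk 45.6 and 53.3 CPM against 47.9 and 129 CPM. Both overlapped, and in both pup replicate 2 stood well above the other 3 libraries.

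The R-spondin axis held the member with the largest difference. All 7 tested genes of the axis had a negative log2 fold change, with a median of -1.37, where 57.1% of all genes were negative with a median of -0.24. In 4 of them both adult libraries lay below both pup libraries, as in 27.1% of all genes. Rspo3 (chromosome 10, 29452416 to 29535867), an R-spondin made by stroma and endothelium in many organs, had 1.61 and 5.98 CPM in adults against 58.4 and 56.2 CPM in pups. The pup libraries were nearly equal in CPM, and the counts behind these levels were 21 and 83 in adults against 540 and 1070 in pups. The log2 fold change was -3.91 ± 0.80 (SE), and DESeq2 called it (adjusted p = 0.000186) whereas edgeR did not (adjusted p = 0.205). Without each library in turn the value ranged from -5.15 to -3.31. EdgeR called it without adult replicate 2 (adjusted p = 0.000811), not when any other library was left out (adjusted p from 0.059 to 0.398), and with no filter beyond 1 count (adjusted p = 0.00466), where it called 0.508% of all genes lower. An expected 43.2 of the 540 counts of pup replicate 1 were background, and 13.1% of the exon length is shared with a predicted gene, from which reads cannot be told apart without strand.

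Rspo1, another R-spondin, had 0 and 37 counts in adults against 51 and 447 in pups, or 0 and 2.66 CPM against 5.52 and 23.5 CPM. The 51 in pup replicate 1 were within the background range, with 27.1 expected. The 0 in adult replicate 1 allows a level of up to 0.230 CPM, taking 3 counts as the limit, which covers counting error only. Its log2 fold change of -3.44 ± 2.20 (SE) did not pass (edgeR adjusted p = 0.562), and the value without adult replicate 2, -10.64, rests on that 0. Rspo2 had 0 counts in both adults and in pup replicate 2, and its 88 counts in pup replicate 1 stood beside 71.5 expected from background. Summed over Rspo1, Rspo2 and Rspo3, levels per length were 1.13 and 6.02 TPM in adults against 77.7 and 67.1 TPM in pups. Background was not taken off, and Rspo1 and Rspo2, both within the background range in pup replicate 1, took 12.1% and 7.89% of its sum.

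The LGR receptors, which bind R-spondins, did not share that pattern gene by gene. Lgr4, the widely expressed member, had 92.2 and 53.1 CPM in adults against 83.9 and 97.6 CPM in pups, with a log2 fold change of -0.32 ± 0.49 (SE) and overlapping ages. Lgr6, a marker of progenitors in skin and other epithelia, had 57.02 and 8.64 CPM in adults against 103 and 144 CPM in pups (-1.91 ± 0.88, edgeR adjusted p = 0.407). Without adult replicate 1, whose level lay nearer the pups, Lgr6 was called (log2 fold change -3.88, edgeR adjusted p = 0.0196), where edgeR called 0.987% of all genes lower and 1.4% higher. When adult replicate 2 was left out instead, the value was -1.11 (edgeR adjusted p = 0.670), so the size depends on which adult library is kept. Over 6 basal and myoepithelial markers, such as Krt14 and Acta2, the sums were 5127 and 2179.5 CPM in adults against 4894 and 14222 CPM in pups, so these markers, like Lgr6, were lowest in adult replicate 2, and their part in the Lgr6 values was not tested. Lgr5, the intestinal stem cell receptor, had 4 and 176 counts in adults against 309 and 3 in pups, the 309 standing beside an expected background of 144. Without pup replicate 1 its log2 fold change turned to 5.29, on 3 counts in the remaining pup library.

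The 2 ubiquitin ligases that R-spondins act on had small log2 fold changes. Rnf43 had 37.2 and 53.3 CPM in adults against 46.8 and 46.5 CPM in pups, a log2 fold change of -0.04 ± 0.47 (SE). Znrf3 had 20.5 and 20.2 CPM in adults against 25.8 and 22.9 CPM in pups (-0.26 ± 0.59), 110 of its 238 counts in pup replicate 1 being expected from background. Neither passed (edgeR adjusted p = 0.980 and 0.894), which does not show that the ages were alike.

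Of the 9 secreted inhibitors 7 were tested. Sfrp1 and Dkk3 had both adult libraries below both pup libraries, where 27.1% of all genes did, and the other 5 overlapped, 4 of them with 0 counts in adult replicate 1. Sfrp1 (chromosome 8, 23411502 to 23449632), a secreted Frizzled-related protein that binds WNT ligands, had 26.4 and 74.8 CPM in adults against 148 and 327 CPM in pups. The log2 fold change was -2.23 ± 0.75 (SE; edgeR adjusted p = 0.284, DESeq2 adjusted p = 0.0194), and without each library in turn it ranged from -3.17 to -1.55. Per length Sfrp1 was the highest inhibitor in both pups, at 112 and 166 TPM, against 13.1 and 31.2 TPM in the adults. Dkk3, a divergent Dickkopf protein, lay the same way, with 23.5 and 56.4 CPM in adults against 90.0 and 115 CPM in pups (-1.36 ± 0.58, edgeR adjusted p = 0.361). In both genes adult replicate 1 was the lowest library.

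Sfrp2 and Sfrp4, secreted proteins typical of fibroblasts, had 0 counts in adult replicate 1. Sfrp2 had 0 and 184 CPM in adults against 27.1 and 91.0 CPM in pups, so that adult replicate 2 was the highest and adult replicate 1 the lowest library. Sfrp4 had 0 and 70.8 CPM in adults against 10.9 and 56.7 CPM in pups, in the same order. Its 101 counts in pup replicate 1 were within the background range, with 58.5 expected. The log2 fold changes of Sfrp2 and Sfrp4, 0.64 ± 2.11 and 0.06 ± 2.03 (SE), had errors larger than the values. Without adult replicate 2 they turned to -12.67 (edgeR adjusted p = 8.23e-08) and -11.87 (edgeR adjusted p = 1.25e-05), fitted values that rest on the 0 counts of adult replicate 1 and are no measure of size. The fibroblast marker sum was also lowest in adult replicate 1, at 1273 CPM beside 22000.3 CPM in adult replicate 2. Unlike Sfrp2 and Sfrp4, that sum was higher in both pups than in adult replicate 2, at 26107 and 59858 CPM. Its part in the Sfrp2 and Sfrp4 values was not tested. For Sfrp2, 16.1% of the exon length is shared with another gene.

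Wif1, which binds and blocks WNT ligands, had 32.7 and 14.5 CPM in adults against 15.3 and 15.8 CPM in pups (log2 fold change 0.60 ± 0.72, SE). It took 50.8% of the inhibitors' summed TPM in adult replicate 1, where Sfrp2 and Sfrp4 were at 0, against 4.12% in adult replicate 2 and 7.01% and 3.78% in the pups. Dkk2, which binds LRP5 and LRP6, had 0 and 103 counts in adults against 36 and 33 in pups, and Frzb, another Frizzled-related protein, 0 and 27 against 94 and 19. In pup replicate 1 both were within the background range, with 51.8 and 45.3 counts expected. Dkk1, the best known LRP inhibitor, had 0 counts in both adults against 66 and 6 in pups, and Sfrp5 0 counts in both adults against 5 and 0 in pups. These last 2 were not tested, and 33.9 and 26.6 counts were expected from background in pup replicate 1.

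**Figure D4:**
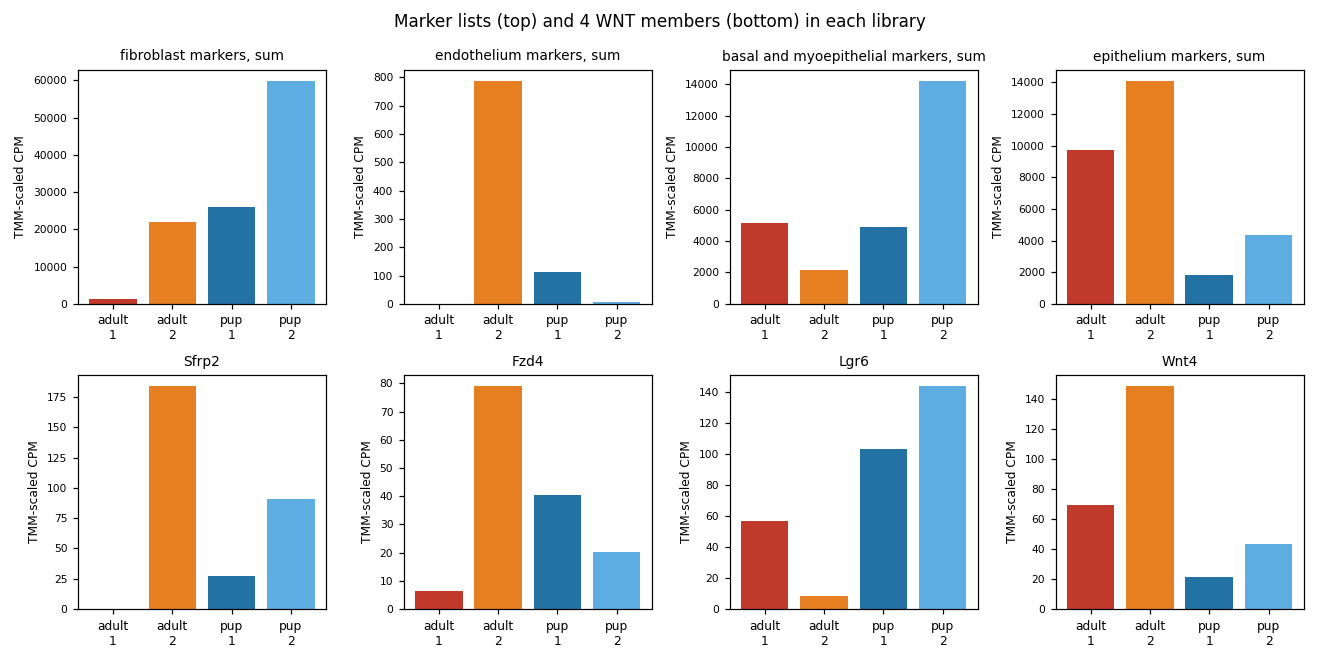
Bars show TMM-scaled CPM in each library, in the top row summed over the fibroblast (8 genes), endothelial (6), basal and myoepithelial (6) and epithelial (8) markers, and in the bottom row for Sfrp2, Fzd4, Lgr6 and Wnt4. Sfrp2 is at 0 in adult replicate 1, where the fibroblast sum is lowest, Fzd4 and the endothelial sum are highest in adult replicate 2, and Lgr6 and the basal sum are lowest there.

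Of the 7 nuclear factors and targets 6 were tested, 5 with a negative log2 fold change, where 57.1% of all genes were negative. Of these, 0 were called by edgeR or DESeq2. Over all genes edgeR called 0%, and DESeq2 called 5.28% lower and 3.74% higher. Axin2, the feedback scaffold whose start site is shown above, had 3.30 and 3.67 CPM in adults against 6.28 and 11.3 CPM in pups, or 43 and 51 counts against 58 and 215. The 58 counts in pup replicate 1 were fewer than the 77.0 expected from background, and the log2 fold change of -1.33 ± 1.38 (SE) was smaller than its error. Nkd1, a feedback inhibitor that binds Dishevelled, had 91.0 and 31.2 CPM in adults against 89.2 and 228 CPM in pups (-1.38 ± 0.74, edgeR adjusted p = 0.481). Adult replicate 1 and pup replicate 1 were nearly equal, so the ages overlapped. Notum, a secreted enzyme that strips the lipid from WNT ligands, had 5 and 90 counts in adults against 69 and 3 in pups, and 38.1% of its exon length is shared with other genes. In pup replicate 1 it was within the background range, with 33.7 of the 69 counts expected.

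Tcf7l1 and Tcf7l2 made up most of the TCF and LEF RNA. Tcf7l2 had 55.6 and 72.6 CPM in adults against 116 and 175 CPM in pups, a log2 fold change of -1.18 ± 0.50 (SE; edgeR adjusted p = 0.360, DESeq2 adjusted p = 0.102). Tcf7l1, known mainly as a repressor, had 35.3 and 43.3 CPM in adults against 51.9 and 122 CPM in pups (-1.14 ± 0.57, edgeR adjusted p = 0.436). Neither gene overlapped between ages. Tcf7 had 11.9 and 8.21 CPM in adults against 10.5 and 9.56 CPM in pups, a difference of 0.00 ± 1.03 on the log2 scale whose sign turned under the other scalings. An expected 36.7 of its 97 counts in pup replicate 1 were background. Lef1 had 0 counts in both adults and in pup replicate 2, and its 147 counts in pup replicate 1 stood beside 123 expected from background, so it was not detected beyond background in any library. Summed over the 4 factors, levels per length were 43.2 and 40.9 TPM in adults against 106 and 121 TPM in pups. Background was not taken off, and Tcf7 and Lef1, both within the background range in pup replicate 1, took 12.4% and 5.60% of its sum.

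Between the adult libraries, 11 of the 45 tested members had at most 5 counts in adult replicate 1 and at least 30 in adult replicate 2, and 0 had the reverse. They were Wnt2, Wnt2b, Wnt7b, Wnt9a, Fzd9, Rspo1, Lgr5, Sfrp2, Sfrp4, Dkk2 and Notum. Over all genes tested, 5.92% met the first condition and 1.46% the reverse. Leaving out adult replicate 2 moved the median log2 fold change of the 45 members to -2.21, whereas it was -0.82 when adult replicate 1 was left out, -1.22 for pup replicate 1 and -0.51 for pup replicate 2. The median over all genes tested was -0.42, -0.24, 0.044 and -0.21 in the same 4 fits.

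The rest of the pathway was read from a list of 89 other genes, of which 78 were tested. By edgeR 0 were called, and DESeq2 called 1 higher and 6 lower, where it called 3.74% and 5.28% of all genes. Their median log2 fold change was -0.60, and both adult libraries lay below both pup libraries for 35 of them and above for 7, where 27.1% and 21.8% of all genes lay so. Wls, the carrier that brings WNT ligands to the cell surface, had 469 and 309 CPM in adults against 197 and 436 CPM in pups, and Porcn, the enzyme that adds their lipid, 16.2 and 13.6 CPM against 18.1 and 28.4 CPM. Wls overlapped between ages, and Porcn had both adult libraries below both pup libraries without passing either test (log2 fold change -0.64 ± 0.69, SE; edgeR adjusted p = 0.758).

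In the cytoplasmic relay 21 genes were tested, 8 with a positive and 13 with a negative log2 fold change and a median of -0.20. Over all genes tested 57.1% were negative, with a median of -0.24. Ctnnb1, the gene of beta-catenin, had 324 and 378 CPM in adults against 170 and 353 CPM in pups (log2 fold change 0.43 ± 0.66, SE), and the kinase gene Csnk1a1 436 and 462 CPM against 317 and 611 CPM (-0.05 ± 0.71). Dact2, a Dishevelled-binding protein, was the gene that DESeq2 called higher, with 55.4 and 53.3 CPM in adults against 12.6 and 14.8 CPM in pups. Its log2 fold change was 1.99 ± 0.51 (DESeq2 adjusted p = 0.0200, edgeR adjusted p = 0.244). Its 116 counts in pup replicate 1 were within the background range, with 47.3 expected.

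The extracellular modulators outside the 50 members had 15 tested genes, of which 11 had both adult libraries below both pup libraries, where 27.1% of all genes did. The glypican Gpc3, a cell surface proteoglycan that binds WNT ligands, had 58.2 and 59.0 CPM in adults against 195 and 385 CPM in pups (log2 fold change -2.31 ± 0.60, SE; DESeq2 adjusted p = 0.000315, edgeR adjusted p = 0.250). Gpc6 had 19.2 and 41.8 CPM in adults against 113 and 215 CPM in pups (DESeq2 adjusted p = 0.00329), whereas Gpc4 overlapped, with 217 and 181 CPM against 89.2 and 238 CPM. Ndp, the gene of Norrin, a ligand of Fzd4 outside the WNT family, had 0 counts in both adults against 37 and 101 in pups. The 37 in pup replicate 1 were within the background range, with 13.6 expected. Its CPM in pup replicate 2 alone was 47.6 times a limit of 3 counts over both adult libraries, the counting error of that pup library not included. DESeq2 called Ndp lower (adjusted p = 0.0277) and edgeR did not (adjusted p = 0.284). Igfbp4, an inhibitor of LRP6, had 74.0 and 504 CPM in adults against 579 and 1612 CPM in pups.

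Among the nuclear cofactors 15 genes were tested and DESeq2 called 1 lower, where it called 5.28% of all genes lower and 3.74% higher. This was Pygo1, a beta-catenin cofactor, with 7.13 and 0.936 CPM in adults against 51.2 and 27.1 CPM in pups (DESeq2 adjusted p = 0.0418, edgeR adjusted p = 0.284). Ctbp1, a corepressor, had 213 and 207 CPM in adults against 70.7 and 171 CPM in pups, and the coactivator Crebbp 76.7 and 145 CPM against 162 and 170 CPM. In the planar polarity branch DESeq2 called 0 of 13 tested genes, beside the same 5.28% and 3.74% of all genes. The GTPase genes Rac1 and Rhoa had 334 and 330 CPM and 254 and 229 CPM in adults, against 139 and 395 CPM and 132 and 300 CPM in pups, and 51.4% of the exon length of Rac1 is shared with another gene.

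Of 10 other targets tested, 7 had both adult libraries below both pup libraries and DESeq2 called 2 lower, where 27.1% and 5.28% of all genes were so. Myc, a growth regulator and target in many tissues, had 63.8 and 137 CPM in adults against 266 and 553 CPM in pups (log2 fold change -2.03 ± 0.73, SE; DESeq2 adjusted p = 0.0126, edgeR adjusted p = 0.284). Ascl2, a target in intestinal stem cells, had 0 counts in both adults against 51 and 50 in pups. The 51 in pup replicate 1 were within the background range, with 22.7 expected. Its CPM in pup replicate 2 alone was 23.6 times the same adult limit, again without the counting error of that library. DESeq2 called Ascl2 lower (adjusted p = 0.0454) and edgeR did not (adjusted p = 0.284). Tbx3 overlapped, with 154 and 97.6 CPM in adults against 67.5 and 148 CPM in pups. Of the 9 ligands outside the 50 members, Wnt1 and Wnt10b were tested. Wnt10b had 0 and 31 counts in adults against 66 and 35 in pups, and Wnt1 0 counts in both adults against 21 and 26 in pups, 33.3 being expected from background in pup replicate 1.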

How the data were processed

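RNA was measured in 4 libraries of sorted submandibular gland cells, 2 per age, each made from 1 ng of total RNA with SMART-Seq HT per the labels' protocols, chemistry that copies whole transcripts without marking strand. The deposited values are raw read counts per Ensembl gene. Per the submitters' processing notes, cutadapt 1.18, STAR 2.5.2a, HTSeq 0.11.0, R 3.5.1, DESeq2 1.20.0 and the build GRCm38 were used, their options and annotation being not given in the sources used here. HTSeq's tallies of unassigned reads, 31.5% to 84.4% of all reads tallied, stayed out of library sizes and tests. In 2 tables of the whole series, 8 value columns match no single sample and were not used.

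Of 53465 genes, 53360 matched GENCODE vM21 (GRCm38), from which names, coordinates and lengths were taken. Genes were tested with edgeR 4.0.16 in R 4.3.3, with TMM factors and a model of age alone, after filterByExpr (at least 10 counts, total of at least 15), by the quasi-likelihood F test with Benjamini-Hochberg adjusted p under 0.05 over all 16320 genes tested. The common biological coefficient of variation was 0.895. The SE of a log2 fold change is its size divided by the square root of F. The smallest adjusted p of any gene was 0.141. The steps were tested on simulated data.

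Expected background in pup replicate 1 is a gene's exon length times the library's olfactory receptor count per kb, with a factor of 0.5 for genes on X and Y. That factor presumes male mice, and the sex of the mice was not tested. Single genes scatter widely around it, and no CPM, TPM or share given here has it taken off. Intervals and limits cover counting error only.

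All members are named. Of the pathway list, the text names those called by edgeR or DESeq2 and the 2 tested genes of highest mean CPM in each role. Members, lists and tests were chosen with earlier results of these data known. The alternatives replaced TMM by DESeq2 size factors, by upper-quartile factors or by library totals, and also tried 2 other filters, DESeq2 1.42.0 and limma-voom (limma 3.58.1), a replicate block, subtraction of the expected background, and each library left out in turn on the same genes, where a lone sample is assumed to vary like the other age. The median of all genes shifted by -0.07, -0.18 and -0.38 on the log2 scale under the 3 scalings, in the order given.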

Additional observations from a re-analysis of the deposited data

How the results depend on the processing

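The count of members that edgeR called lower, 0, became 1 with no filter beyond 1 count and 4 with DESeq2, and ranged from 0 to 5 as each library was left out, 1 without adult replicate 1 and 5 without adult replicate 2, where 0.987% and 4.49% of all genes were called lower. The 2 members with both adult libraries above both pup libraries became 4 with the expected background subtracted (24.7% of all genes) and 3 to 10 with a library left out (30.2% to 35.7% of all genes). The 21 below became 20 with the expected background subtracted (24.0% of all genes). With a library left out they became 26 to 32, where 35.3% to 47.0% of all genes lay below. Fewer libraries make non-overlap easier by construction. The median log2 fold change ranged from -2.21 to -0.51 with a library left out, and was negative under each alternative that gave a median. The same replicate numbers had a correlation of deviations of -0.098, and the labels give the numbers no shared source, so they do not pair the libraries; the replicate block called 0 members and gave a median of -1.15. Signs of single members turned as follows, and the cause was not tested. Tcf7 became -0.064 with DESeq2 size factors and -0.064 with DESeq2, -0.18 with upper-quartile factors, -0.37 with library totals, -0.0057 with 10 counts in every library of an age, -0.0055 with limma-voom and -0.021 with the replicate block. Sfrp4 became -0.060 with upper-quartile factors, and with library totals Sfrp4 became -0.15, Fzd4 -0.049 and Dkk2 -0.18. With no filter Rnf43 became 0.11 and Notum 0.18. With limma-voom Wnt2b became 0.36, Wnt9a -1.85, Fzd4 -0.20, Fzd9 -1.05, Lgr5 0.87, Sfrp2 -4.10, Sfrp4 -4.06, Dkk2 -2.06 and Notum 1.21. With the replicate block Wnt9a became -1.77, Fzd4 -0.32, Fzd9 -1.15, Sfrp2 -2.75, Sfrp4 -2.69, Dkk2 -2.30 and Notum 0.48. With background subtracted Wnt2b became 0.65, Lrp5 0.27 and Notum 0.31. With a library left out, 18 members changed sign, and their log2 fold changes ranged from -8.88 to 0.43 for Wnt2, -3.03 to 0.64 for Wnt5b, -0.32 to 0.15 for Rnf43, -0.15 to 1.07 for Wif1, -0.34 to 0.24 for Tcf7, -3.28 to 4.37 for Notum, -6.19 to 1.89 for Wnt9a, -2.24 to 1.33 for Fzd4, -6.43 to 2.19 for Fzd9, -0.82 to 0.023 for Lgr4, -12.67 to 1.77 for Sfrp2, -11.87 to 1.70 for Sfrp4, -8.28 to 1.33 for Dkk2, -8.68 to 7.19 for Wnt2b, -0.55 to 0.20 for Lrp5, -5.73 to 5.29 for Lgr5, -1.22 to 0.18 for Fzd8 and -1.39 to 0.045 for Ryk. The depth of pup replicate 1 and its background limit what can be said of the 25 members within the background range. Members above that range are not free of this limit. By the olfactory receptor rate, background would supply 24.1% of that library's total over genes. Its TMM factor was 1.42, against 0.838 to 0.947 in the other libraries. Both the total and the factor enter each CPM of pup replicate 1, and so each comparison of the ages by level.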
